A study of Schizosaccharomyces pombe with 2 samples.

Results

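The genes described are fission yeast (Schizosaccharomyces pombe) genes for pre-mRNA splicing factors. They were chosen by name: a gene was taken when a probe set named it alone and its symbol on the array platform was prp, cwf or lsm followed by digits. The rule gave 48 genes out of 2896 fission yeast genes that a probe set names, made up of 18 prp, 22 cwf and 8 lsm genes, each with 1 probe set. RefSeq gives 51 genes a symbol of this form. Another 2 of these, prp39 and prp40, stand on the platform under the older symbols usp105 and usp104, and prp24 has no named probe set here. RNA was measured on 2 Affymetrix Yeast Genome 2.0 arrays, 1 for each condition. The untreated array carried total RNA of cells grown to mid-log phase in the rich medium YES at 30 °C, with no agent named. The treated array carried RNA of cells grown in the same way and then exposed for 2 h to DETA NONOate, an agent that sets nitric oxide free, at 0.5 mM. The labels give neither the strain nor how long the untreated culture was kept.

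Splicing removes introns from pre-mRNA by means of the spliceosome, a large assembly of small nuclear RNAs and proteins that is built anew on each intron. U1 and U2 particles mark the ends of the intron, the U4/U6.U5 tri-snRNP joins, and a protein group around Cdc5 and Prp19 then holds the active RNA core while helicases drive it through the 2 cutting and joining steps. Many prp genes were found through yeast mutants that fail in pre-mRNA processing, the cwf genes were named for proteins that copurify with Cdc5, and the lsm genes encode small Sm-like proteins that form rings around RNA.

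Each array had been scaled to a like mean, so a ratio is relative to the rest of the array, and a shift shared by all transcripts would not be seen. Fewer cells of a kind and less RNA per cell cannot be told apart in such bulk samples. With 1 array per condition no replicate check exists, no p-value can be given, and precision is limited by the number of arrays. A measure of technical spread comes from 64 probe sets for bacterial and phage control RNAs, whose log2 ratios between the arrays had an SD of 0.24 and ran from −0.76 to 0.42. The control spread named below is this SD of 0.24, a yardstick and not a limit of noise. In the 35 control probe sets with signals of at least 100 on both arrays the SD was 0.15. Neither SD holds differences between cultures. Background was a signal of 7.99 without and 8.76 with treatment, and all 48 splicing factor genes lay above it on both.

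Signals of the splicing factor genes differed by 1.56-fold at most between the array of DETA NONOate-treated cells and the array of untreated cells. None of the 48 was 2-fold higher or 2-fold lower, where 2.25% and 2.04% of all 2889 measured genes were. With 48 genes, a count of 0 is close to shares as low as these. At 1.5-fold, 0 were higher, against 5.68% of all genes, and 1 was lower, cwf18, against 6.61%. At 1.2-fold, a threshold chosen after the values were seen, 5 were higher and 11 were lower, against 18.1% and 22.5% of all genes. The log2 ratio, treated minus untreated, was below 0 in 29 of the 48, against 50.8% of all genes. The median log2 ratio of the 48 was −0.08, and that of all genes was −0.01.

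The ratios of the splicing factor genes lay closer together than those of all genes. They ran from −0.65 for cwf18 to 0.53 for cwf21, and their SD was 0.25, against 0.51 over all measured genes. The interquartile range spanned 0.31 log2 units in the 48 genes and 0.42 in all genes. It spanned 0.27 in the 47 other spliceosome genes and 0.19 in the 10 mRNA decay genes described below, whose SDs were 0.29 and 0.15. A narrow spread was thus not particular to the 48 genes. All 48 lay inside the central 95% of all genes, which ran from −0.90 to 0.95. Beyond 1 SD of the control RNAs, 13 were lower and 5 were higher, where 712 and 593 of all 2889 genes were. Together these were 18 of 48, against 45.2% of all genes. Beyond 2 SD lay 4 of 48, against 18.9% of all genes, and beyond the 0.15 of the brighter controls 25 of 48, against 63.1%. The whole range of the controls held 47 of the 48 ratios, cwf21 being the exception, and 86.4% of those of all genes. Signals of the 48 ranged from 66.2 to 2406 without treatment and from 56.6 to 2238 with it, and prp18 and lsm8 alone had signals under 100 on both.

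**Figure D1:**
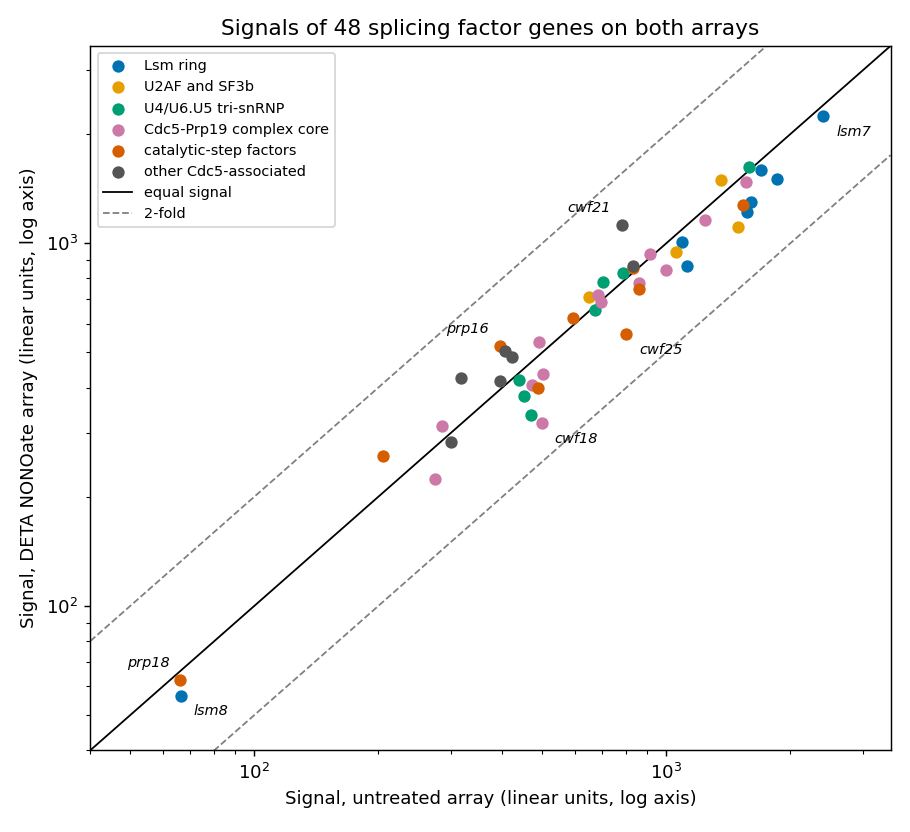
Signal of each of the 48 genes on the untreated array (horizontal, linear units on a log axis) against its signal on the DETA NONOate array (vertical, same units), 1 point a gene, coloured by role; the solid line marks equal signals and the dashed lines 2-fold. All 48 points lie between the dashed lines, with cwf18 lowest and cwf21 highest relative to the solid line, and prp18 and lsm8 are the only points under a signal of 100.

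The Lsm proteins form 2 related rings. Lsm2 to Lsm7 are shared, the ring with Lsm8 binds the U6 RNA of the spliceosome in the nucleus, and the ring with Lsm1 works in the decay of mRNA in the cytoplasm. All 8 Lsm genes gave less signal with treatment, against 50.8% of all genes with a ratio below 0, and their median log2 ratio was −0.27. The differences were small: the lowest ratio was 1.30-fold. Within 1 SD of the control RNAs lay 4 of the 8, and 1584 of all 2889 genes.

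Among the Lsm genes, lsm1 (locus tag SPOM_SPBC3D6.08C), the subunit of the decay ring, gave a signal of 1570.1 without and 1221 with treatment, a log2 ratio of −0.36. Its counterpart in the nuclear ring, lsm8 (SPOM_SPCC1840.10), had signals of 66.4 and 56.6 and a ratio of −0.23, at a dim probe set. Both ring-specific genes were thus on the same side of 0. The shared subunits were all below 0, 3 farther from it and 3 nearer. In lsm3, signals of 1124 and 864 gave −0.38, in lsm4 1606 and 1297 gave −0.31, and in lsm2 1854 and 1501 gave −0.30. Closer to 0 were lsm5 at −0.11 (1092 and 1009), lsm7 at −0.10 (2406 and 2238) and lsm6 at −0.09 (1697 and 1591). The 3 lower genes lay beyond the control spread of 0.24 and the 3 nearer ones did not.

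**Figure D2:**
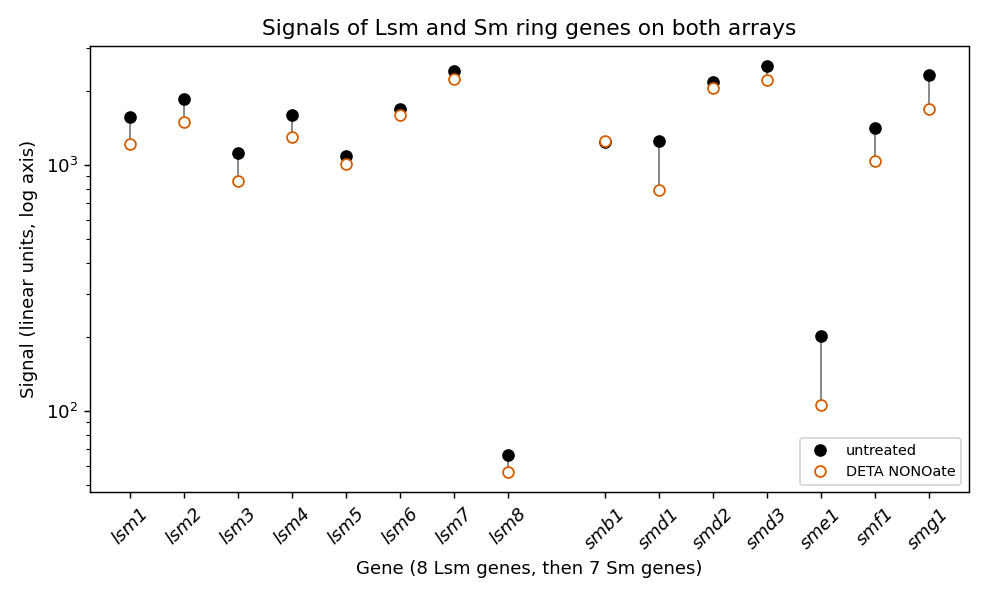
Signals of the 8 Lsm genes and of the 7 Sm genes (vertical, linear units on a log axis) on the untreated array (filled) and the DETA NONOate array (open), 1 array each, with a line joining the 2 values of a gene. The open point lies lower in all 8 Lsm genes and in 6 of 7 Sm genes, and smb1 has nearly the same signal on both arrays.

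Genes for recognition of the 3' end of the intron and its branch site did not share a direction. The gene prp2, for the large subunit of U2AF, which binds the pyrimidine tract, had signals of 1495 and 1109 and was 1.35-fold lower, a ratio of −0.43. The SF3b genes, whose products hold U2 on the branch site, lay on both sides of 0. For prp10, the counterpart of human SF3B1, the signals were 1359 and 1491 with a ratio of 0.13. For prp12, another SF3b subunit, they were 1058 and 946 with a ratio of −0.16. The helicase gene prp11, the counterpart of S. cerevisiae Prp5, had signals of 651 and 709 and a ratio of 0.12. Only prp2 of these 4 genes exceeded the control spread, against 45.2% of all genes.

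Tri-snRNP genes were mostly level, with a median of −0.03 over 7 genes, 4 of them below 0, against 50.8% of all genes. The gene farthest from 0 was prp3, for a protein of the U4/U6 particle, with signals of 469 and 337, a ratio of −0.48. Next was prp4, for a protein kinase that acts on splicing factors, at 451 and 379.7 with −0.25. These 2 were the tri-snRNP genes beyond the control spread, where 45.2% of all genes were.

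The other 5 lay within it. The U4/U6 gene prp31 had signals of 702 and 781 and a ratio of 0.15, opposite in sign to its partner prp3. A ratio of 0.07 was found for prp1, the counterpart of S. cerevisiae Prp6 that bridges the particles, from signals of 787 and 826. The gene cwf10, for the U5 GTPase, gave 0.03 from 1588 and 1624. Below 0 were prp28, whose helicase displaces U1, at −0.03 (669.9 and 656), and prp38, needed for activation of the spliceosome, at −0.07 (438 and 419).

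In the core of the Cdc5-Prp19 complex, 9 of 13 genes had a ratio below 0, against 50.8% of all genes, and the median was −0.10. The one gene past 1.5-fold was cwf18 (SPOM_SPCP1E11.07C), for a small protein of the complex, with a signal of 499 without and 319 with treatment, 1.56-fold lower. Its ratio of −0.65 was the lowest of the 48 genes, yet 5.57% of all measured genes had a still lower one. The next were cwf14, the counterpart of human BUD31, with 274 and 224 and a ratio of −0.29, and cwf11, the counterpart of the intron-binding helicase aquarius, with 996 and 844 and −0.24. Of the 13 genes these 3 exceeded the control spread, all of them lower, where 45.2% of all genes exceeded it in either direction.

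The other 10 genes of the core all lay within the control spread. They are grouped here after the 3 genes beyond it were set apart, first the scaffold and ubiquitin ligase genes. For prp19, the ubiquitin ligase itself, signals of 1558 and 1479.6 gave −0.07. The genes cwf3 and cwf4, for the repeat proteins known as Syf1 and Syf3, had signals of 696 and 688 (−0.02) and of 490.3 and 536 (0.13). In cwf7, the gene also called spf27, 1242 and 1163 gave −0.10. The WD-repeat gene prp5, also called cwf1, had 912 and 931 with 0.03, and prp45, whose human counterpart is SNW1, had 683 and 718 with 0.07. That none of these 6 passed the control spread follows from this grouping.

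The last 4 of the 10 core genes within the control spread encode proteins next to the RNA core. The RNA-binding proteins encoded by cwf2 and cwf5 contact the active site, and their genes had signals of 860.4 and 779 (−0.14) and of 286 and 314 (0.14). The gene cwf12, the counterpart of S. cerevisiae Isy1, had 471 and 406 with −0.21. A like ratio of −0.21 was found for cwf15, the counterpart of S. cerevisiae Cwc15, from 502 and 435. Of these 4 genes 3 were lower and 1 was higher, and all 4 ratios were smaller than the control spread of 0.24, though cwf12 and cwf15 exceeded the 0.15 of the brighter controls.

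The factors that drive the 2 chemical steps lay farther apart than the other roles, with ratios from −0.51 to 0.40 and a median of −0.08. Of these 9 genes 5 were below 0, against 50.8% of all genes. For the first step, cwf25 (SPOM_SPBC146.05C), whose S. cerevisiae counterpart promotes branching, had signals of 799.6 and 561 and was 1.43-fold lower, a ratio of −0.51. The zinc finger gene cwf24 went the other way, with 205 and 258 and a ratio of 0.33. The gene cwf16, the counterpart of S. cerevisiae Yju2, had 856 and 746 with −0.20. In cwf22, whose S. cerevisiae counterpart is needed before the first step, 593 and 623 gave 0.07. First-step genes were thus found on both sides of 0. Of these 4, cwf25 and cwf24 lay beyond the control spread, where 45.2% of all genes lay.

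Second-step and release factors were also divided. The helicase gene prp16 (SPOM_SPBC1711.17), whose product remodels the spliceosome between the steps, gave a signal of 394 without and 521 with treatment and was 1.32-fold higher, a ratio of 0.40. Its ratio exceeded that of 89.5% of all genes. The second-step genes prp17 and prp18 had signals of 488 and 398 (−0.30) and of 66.2 and 62.7 (−0.08). For prp22, the helicase that releases the mRNA, 829.9 and 854 gave 0.04. For prp43, which takes the spent spliceosome apart and in S. cerevisiae also acts in ribosome assembly, 1531 and 1272 gave −0.27. Over the 6 helicase genes, prp11, prp28, prp16, prp22, prp43 and cwf11, 3 ratios were below 0 and 3 were above. Of all genes, 50.8% were below 0.

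The remaining cwf genes encode proteins found with Cdc5 outside its core. Of these 7 genes 6 had a higher signal on the treated array, against 49.2% of all genes, and the median ratio was 0.20. The roles were assigned with earlier results of these data known, and of all 22 cwf genes 11 had a ratio above 0. The highest ratio of all 48 genes was that of cwf21 (SPOM_SPAC4A8.09C), the counterpart of human SRRM2, with signals of 781 and 1126, 1.44-fold higher or 0.53. Of all measured genes, 6.75% had a higher ratio. The DnaJ-domain gene cwf23 (SPOM_SPCC10H11.02) had 318 and 426 and was 1.34-fold higher, a ratio of 0.42. In cwf19, the counterpart of S. cerevisiae Drn1, 405 and 506 gave 0.32. Above the control spread lay 593 of all 2889 genes and, of the 7, these 3. The others were cwf28 at 0.20 (422 and 484), cwf26 at 0.07 (396 and 416), cwf29 at 0.06 (829.9 and 865) and cwf20 at −0.08 (300.3 and 284). The genes cwf26 and cwf29 are the counterparts of S. cerevisiae Bud13 and Ist3, partners in one complex. Both ratios lay within the control spread, as did those of 1584 of all 2889 genes, so nothing is read from their nearness.

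**Figure D3:**
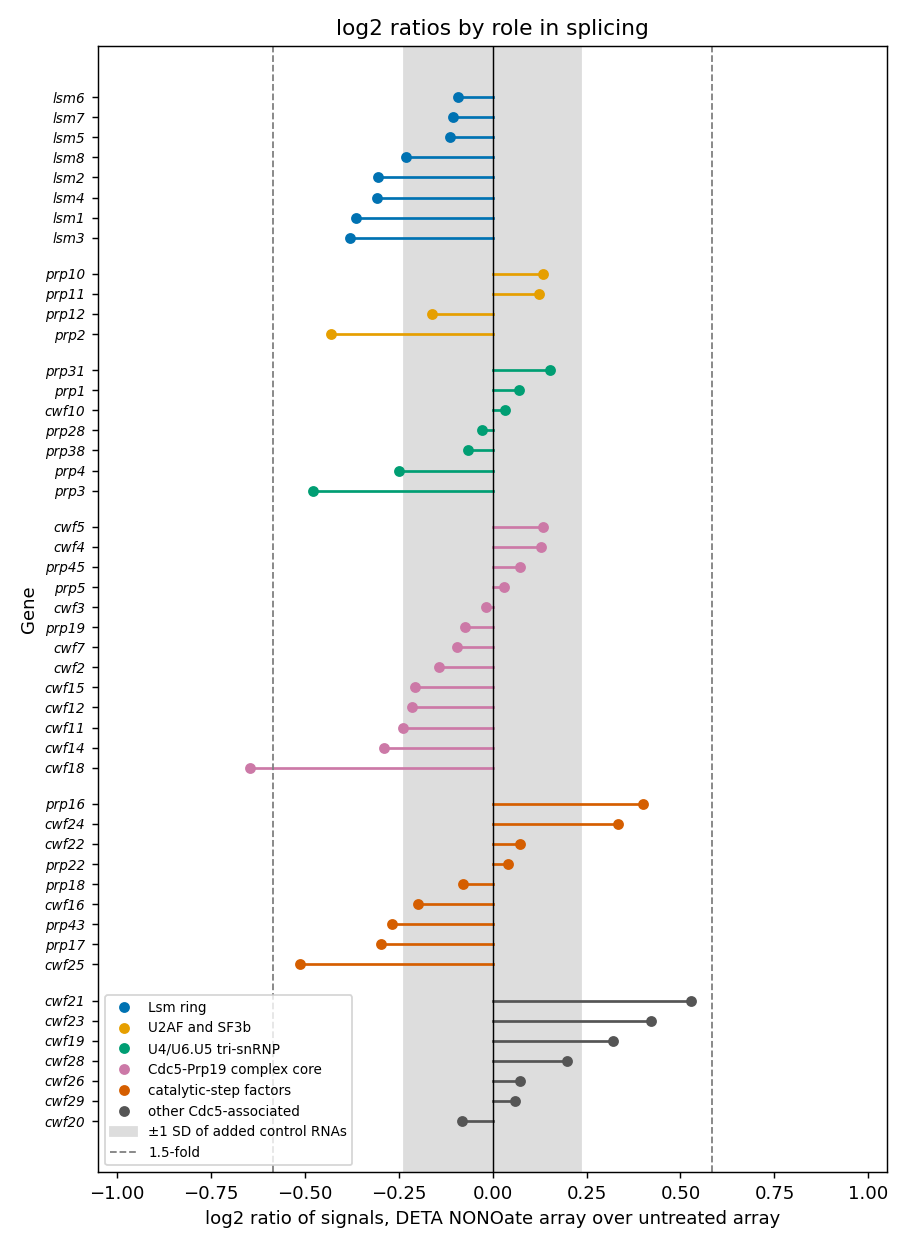
Log2 ratio of signals, DETA NONOate array over untreated array (horizontal), for each of the 48 genes (vertical), grouped and coloured by role; the grey band is ±1 SD (0.24) of 64 control RNA probe sets and the dashed lines mark 1.5-fold. The Lsm genes all lie left of 0, 6 of 7 other Cdc5-associated genes lie right of it, and cwf18 is the only gene past a dashed line.

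By name, the 18 prp genes had a median log2 ratio of −0.05 with 10 below 0, and the 22 cwf genes had 0.01 with 11 below 0. Of all genes, 50.8% were below 0. Without the 8 Lsm genes, 21 of 40 ratios were below 0 and the median was −0.02. A higher median without them follows from their ratios, which all lie below the median of the 48. Ratio and mean signal had a Spearman correlation of −0.16 across the 48 genes, and ratio and gene length had 0.12. Without the 8 Lsm genes these were −0.03 and −0.03, and over all 2889 genes they were 0.05 and 0.13. They are correlations across genes of the same 2 arrays, which are not independent replicates, and they describe no clear trend.

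A list of other spliceosome genes, whose symbols follow another pattern, had 47 measured members. Their median log2 ratio was −0.10, and 35 of the 47 lay below 0, against 50.8% of all genes and 29 of the 48 genes described above. None was 2-fold higher, against 2.25% of all genes, and 1 was 2-fold lower, against 2.04%: dbr1, for the enzyme that opens the lariat intron after splicing. Its signals were 551 and 261, a ratio of −1.08, or 2.11-fold lower. Past 1.5-fold, 0 were higher, against 5.68% of all genes, and 4 of 47 were lower, against 6.61%: dbr1, sme1, smd1 and spf31. For spf31, a DnaJ-domain splicing factor gene, signals of 641 and 420.3 gave −0.61.

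Among them are the Sm genes, for the ring around the U1, U2, U4 and U5 RNAs to which the Lsm ring is related. Of their 7 ratios 6 were below 0, against 50.8% of all genes, and the median was −0.45. The gene sme1 had signals of 202 and 105 and a ratio of −0.93, and smd1 had 1256 and 789 and −0.67. Ratios of −0.46, −0.45, −0.18, −0.08 and 0.02 were found for smg1, smf1, smd3, smd2 and smb1, which are named here after their values were seen. The Sm ratios thus covered a wider range than the Lsm ratios and reached farther below 0. Without the Sm genes, 29 of the other 40 spliceosome genes lay below 0, against 50.8% of all genes, with a median of −0.08. The 2 genes now called prp39 and prp40, for U1 proteins, had ratios of −0.06 (1629 and 1561) and 0.03 (1677 and 1711).

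**Figure D4:**
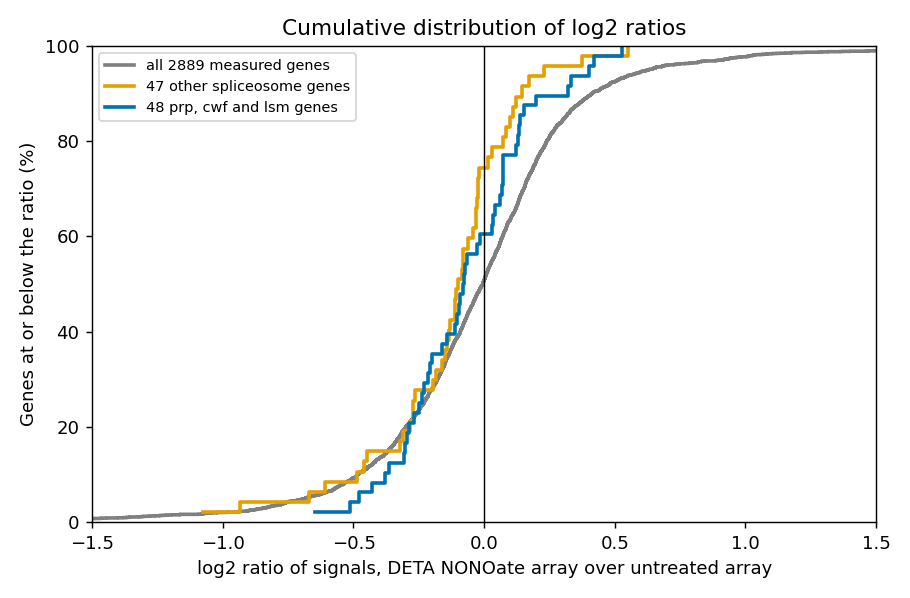
Cumulative percent of genes (vertical) at or below each log2 ratio of signals, DETA NONOate array over untreated array (horizontal, genes farther out not drawn), for all 2889 measured genes, 47 other spliceosome genes and the 48 prp, cwf and lsm genes. The curve of the 48 genes is steeper than that of all genes and ends at −0.65 and 0.53, and that of the other spliceosome genes crosses 0 at 35 of 47.

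The Lsm1 ring works with the decapping enzyme and the deadenylase complex, and 10 genes for these mRNA decay factors were measured. Their median was −0.10, with 8 of 10 below 0, against 50.8% of all genes, and none passed 1.5-fold, against 5.68% higher and 6.61% lower. With pat1, an unrelated kinase gene left out after its value was seen, 1 of 11 was 1.5-fold lower. The ratio farthest from 0 was that of dcp1, for a decapping subunit, with signals of 862 and 635 and −0.44. The genes caf1 and not2, for subunits of the deadenylase complex, had −0.26 (671 and 559) and −0.24 (1281 and 1081). The exonuclease gene exo2 had −0.16 (1485 and 1326). The ratio of lsm1 lay between those of dcp1 and caf1.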

How the data were processed

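The authors deposited 1 signal per probe set and array, a linear intensity. Per the submitters' processing notes the program was Affymetrix Expression Console, of which the sources used here give neither version nor summary algorithm. Per the labels' protocols, 250 ng of total RNA went into biotinylated cRNA. Probe sets were named through the platform annotation, and locus tags and current symbols came from RefSeq assembly ASM294v3 by gene id, with no coordinates printed. All 48 platform symbols equalled the RefSeq symbol.

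The array carries 2601 probe sets for S. cerevisiae, and signals under their 95th percentile were raised to it on each array, and log2 was taken. Of several probe sets of a gene, the brightest was used. A gene was measured when above that level on at least 1 array. With 1 array per condition, counts at fixed folds replace tests. The steps were tested on simulated data. Python 3.11.15, numpy 2.4.6, pandas 2.3.3, scipy 1.17.1 and statsmodels 0.14.6 were used.

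The genes, their roles and the lists of other genes were chosen with earlier results of these data known. Every splicing factor gene is named, and of each other list the 4 genes with ratios farthest from 0. From these lists 4 symbols (pat1, mud1, sad1, spp2) that in fission yeast belong to unrelated genes were left out after their values were seen. Promoter and protein sequences were not analysed here. Alternatives were quantile normalization, median centring, a loess trend (span 0.3) removed, no floor with 16 added, the 99th percentile as floor, the mean of a gene's probe sets, a minimum signal of 100, and choice of genes by RefSeq symbol.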

Additional observations from a re-analysis of the deposited data

How the results depend on the processing

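Under the 8 alternatives, the count of splicing factor genes past 2-fold stayed at 0 in both directions, and past 1.5-fold at 0 higher and 1 lower. At 1.2-fold, 5 were higher and 10 to 11 lower. Between 27 and 30 genes had a ratio below 0 (30 of 50 when chosen by RefSeq symbol), and the median ran from −0.08 to −0.05. All Lsm genes kept a ratio below 0, with 7 counted when lsm8 was left out for its low signal, and their median ran from −0.30 to −0.23. In the Sm genes, 6 of 7 stayed below 0. The median of the tri-snRNP genes ran from −0.03 to 0.00, and that of the U2AF and SF3b genes from −0.02 to 0.02, so neither has a settled sign. No gene's ratio moved by more than 0.05, and the sign changed for 2 genes after loess and 1 after quantile normalization, all with a main ratio no farther than 0.03 from 0. With the 4 unrelated genes kept, the medians were −0.11 for 50 other spliceosome genes and −0.11 for 11 decay genes, of which 1, pat1, was then 1.5-fold lower. No paired analysis was possible because each condition has 1 array. Without replicates the size of difference that can be resolved is unknown, since the control RNAs had an SD of 0.24, or 0.15 in the brighter ones, and differences between cultures were not measured.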

Other observations

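The platform also carries 26 S. cerevisiae probe sets with the same kinds of name, such as PRP8 and LSM1. None of them exceeded the background level on either array. The highest signals of the 26 were 6.91 without and 7.41 with treatment. The dimmest S. pombe splicing factor genes, prp18 and lsm8, had 66.2 and 62.7, and 66.4 and 56.6.

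In the order of protein-coding genes in RefSeq, 4 pairs of splicing factor genes lie next to each other or 1 gene apart. The neighbours cwf22 and cwf24 had log2 ratios of 0.07 and 0.33, and the neighbours prp11 and cwf23 had 0.12 and 0.42. With 1 gene between them, cwf25 and prp2 had −0.51 and −0.43, and prp18 and lsm2 had −0.08 and −0.30. The share of neighbouring genes on the same side of 0 over all measured genes was not computed, and no neighbour effect is read from these 4 pairs.

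Among 6 genes of mating and meiosis, which mark cells leaving growth, ratios went both ways. The meiotic regulator gene mei2 had −0.94 (242 and 126) and the regulator gene ste11 had −0.13 (1078 and 985). For the pheromone gene mfm2, signals of 1281 and 811 gave −0.66. The higher ratios came from dim probe sets, at 0.48 for mfm1 (8.67 and 12.1) and 0.83 for mfm3 (51.8 and 92.2). The gene mei3 was above background on the treated array only, at a signal of 13.4.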
